A study of Canis lupus familiaris with 5 samples.

Results

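Transcripts of protein folding chaperones and of the endoplasmic reticulum (ER) stress response were followed in heart muscle of control dogs and of dogs with congestive heart failure. The members were taken by gene symbol from the array annotation: the HSP70, HSP90, HSP60, HSP10 and HSP110 families, the J proteins (DNAJ), the chaperonin subunits (TCP1 and CCT), the BAG cochaperones, the disulfide isomerases (PDIA, P4HB, ERP29), calreticulin, the prolyl isomerases (FKBP, PPI), and the stress genes ATF4, DDIT3, XBP1 and GADD45A. They comprised 43 genes on 58 probe sets, out of 2416 genes on 3724 probe sets with 1 gene symbol. A probe set is the group of short DNA probes on the array that reads 1 transcript. By the place where the proteins work, 25 genes were assigned to the cytosol, 10 to the ER, 4 to the mitochondrion, and the 4 stress genes were kept apart.

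The set held 5 arrays, each with RNA of canine myocardium: 2 control (1a and 2a) and 3 failing (1a, 1b and 2a). On 4 of them the RNA came from pools of 3 dogs, and for control 1a the labels describe no pool. Strain, age, chamber of the heart and the way heart failure arose were not given in the sources used here. Nor was it given whether the RNA of failing 1a and of failing 1b came from different pools, so the spread behind each p-value is that among arrays and may be technical, and their number limits the precision. The probe sets are annotated with human genes, whereas the RNA was from dog, and 42 of the 43 member symbols were found among the canine genes of RefSeq (assembly UU_Cfam_GSD_1.0). A low reading therefore gives no level of the dog transcript, and levels were not compared between probe sets.

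Chaperones bind unfolded proteins and help them fold. In the cytosol, HSP70 proteins take up unfolded chains with the help of J proteins, HSP90 matures signaling proteins, and the ring-shaped chaperonin TRiC, built of TCP1 and CCT subunits, folds actin and tubulin. In mitochondria an HSP70 and the HSP60 and HSP10 pair fold imported proteins. In the ER, BiP (HSPA5), calreticulin and the disulfide isomerases fold secreted and membrane proteins, and an overload of unfolded proteins there starts the unfolded protein response, in which the transcription factors XBP1 and ATF4 switch on chaperone genes and DDIT3 (CHOP) is linked to cell death. Heart muscle has high protein turnover, and its ER includes the sarcoplasmic reticulum that stores calcium.

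Values were linear intensities on a common scale, with a trimmed mean of 800 on every array, and 34.7% to 39.9% of probe sets per array were below 0. Values were raised to a floor of 20 for the log2 scale, and probe sets with a mean log2 intensity of at least 7.13 were tested. Over the 2301 probe sets tested, failing 2a stood apart. Its median absolute log2 difference from the control mean was 0.95, against 0.50 and 0.54 for failing 1a and 1b. Over the tested members alone it was 1.05, against 0.78 and 0.98, so failing 1b lay close to it there. For GAPDH, whose 3′ over 5′ signal tracks RNA integrity, that ratio was 2.15 and 2.32 in control and 1.32 to 1.44 in failing myocardium, and its part in the results was not tested. The label of heart muscle fitted the markers, since all 12 measured genes of 16 cardiomyocyte markers were bright enough to be tested. Summed marker intensity was 213420 and 226470 in control and 182276 to 211119 in failing myocardium for cardiomyocytes, and 2835 and 4848 against 5928 to 8600 for the 8 measured of 9 fibroblast markers. For smooth muscle (5 of 7 measured, CNN1 below the floor on all arrays) the sums were 30559 and 53590 against 60643 to 85559, and desmin in that list is also a heart muscle protein. Of the tested probe sets, 3 of 8 fibroblast, 2 of 3 smooth muscle and 4 of 7 endothelial ones lay above control on every failing array. Over all probe sets this share was 18.2%. Their median log2 differences were 0.89, 0.87 and 0.86. Below control on every failing array lay 0, 1 and 1 of them, against 11.5% of all probe sets. Of 21 cardiomyocyte ones, 2 lay above and 5 below, with a median log2 difference of −0.04. The sums, which bright probe sets dominate, overlapped between the groups for endothelial markers (7 of 10 measured, 10152 and 14564 against 8519 to 13632), leukocyte markers (3 of 8, CD163 below the floor on all arrays, 101.8 and 317.3 against 12.9 to 2407), red cell markers (2 of 4, 4664 and 6043 against 4597 to 6976) and adipocyte markers (3 of 4, 5518 and 6367 against 4377 to 8032), and 0 of 4 plasma cell markers were on the array. The part of these cell markers in the chaperone results was not tested. In such tissue RNA, fewer cells of a type and less RNA per cell cannot be told apart.

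The comparison asks how folding and stress transcripts differ between failing and control hearts. None of the chaperone or stress probe sets passed the threshold. Of the 58 member probe sets, 27 (23 genes) were bright enough to be tested, and limma with Benjamini-Hochberg adjustment over all 2301 probe sets called 0 of them, against 2 of all probe sets (0.0869%). At an unadjusted p under 0.05, 3 members were higher (11.1%, against 6.13% of all probe sets) and 4 were lower (14.8%, against 3.35%). The higher ones were PPIA, HSPD1 and ATF4. The lower ones were GADD45A and 1 probe set each of HSPA5, ERP29 and P4HB. That of HSPA5 was below the floor on all failing arrays and passed the filter through its control values alone, so it had to differ. That of ERP29, below the floor on 2 failing arrays, also passed through its control values. Without probe sets that had a whole group below the floor, 3 of 26 members were lower (11.5%, against 3.33% of all probe sets). ERP29 was still among these 3, and 0 of all probe sets were called. After scaling to the 75th percentile or quantile normalization, PPIA alone was higher (3.70% of members, against 3.82% and 4.87% of all probe sets). Under either scaling 4 members were lower (14.8%, against 4.74% and 3.48% of all probe sets). The lower probe sets of HSPA5, ERP29 and P4HB are of the _r type, explained below. Without that type, 1 of 22 members was lower, GADD45A (4.55%, against 3.46% of all probe sets). In that setting 3 were higher (13.6%, against 5.92%). Without failing 1a or without failing 1b, 0 members were higher, against 4.13% and 3.52% of all probe sets. In both, 5 were lower (17.9%, against 2.91% and 3.09%), those of HSPA5 and ERP29 among them. Among the 5 was also HSPD22463_at, another probe set of HSPD1, which was not tested in the main setting. All its failing values were below the floor, so it passed the filter through its control values and had to differ. Leaving out a control leaves 1 control array, so no such count is given. With the digit of the array labels as a block, 5 were higher, with CCT7 and XBP1 added (18.5%, against 8.996% of all probe sets). CCT7 had passed the filter through its failing values. In that setting 4 were lower (14.8%, against 4.69%).

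All failing values lay above both control values for 7 members (25.9%, against 18.2% of all probe sets), and below both for 4 (14.8%, against 11.5%). Of these, CCT7 above and the HSPA5 and ERP29 probe sets below had passed the filter through the group where they were high. Under both other scalings the members counted 5 above and 5 below (18.5% each). The balance of all probe sets turned as well, to 12.1% above and 16.9% below at the 75th percentile and 13.5% and 14.9% after quantile normalization. Without control 1a, 7 members lay below (25.9%, against 19.4% of all probe sets), and without failing 2a, 8 did (29.6%, against 21.0%), so the count rose on the whole array too. The 8 included the HSPA5 and ERP29 probe sets just named and HSPD22463_at of HSPD1. Each of these passed the filter through its control values, and HSPD22463_at was not tested in the main setting. Of all probe sets at an unadjusted p under 0.05, 64.7% were higher in failing myocardium, against 58.3% after quantile normalization and 44.7% after scaling to the 75th percentile.

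**Figure D1:**
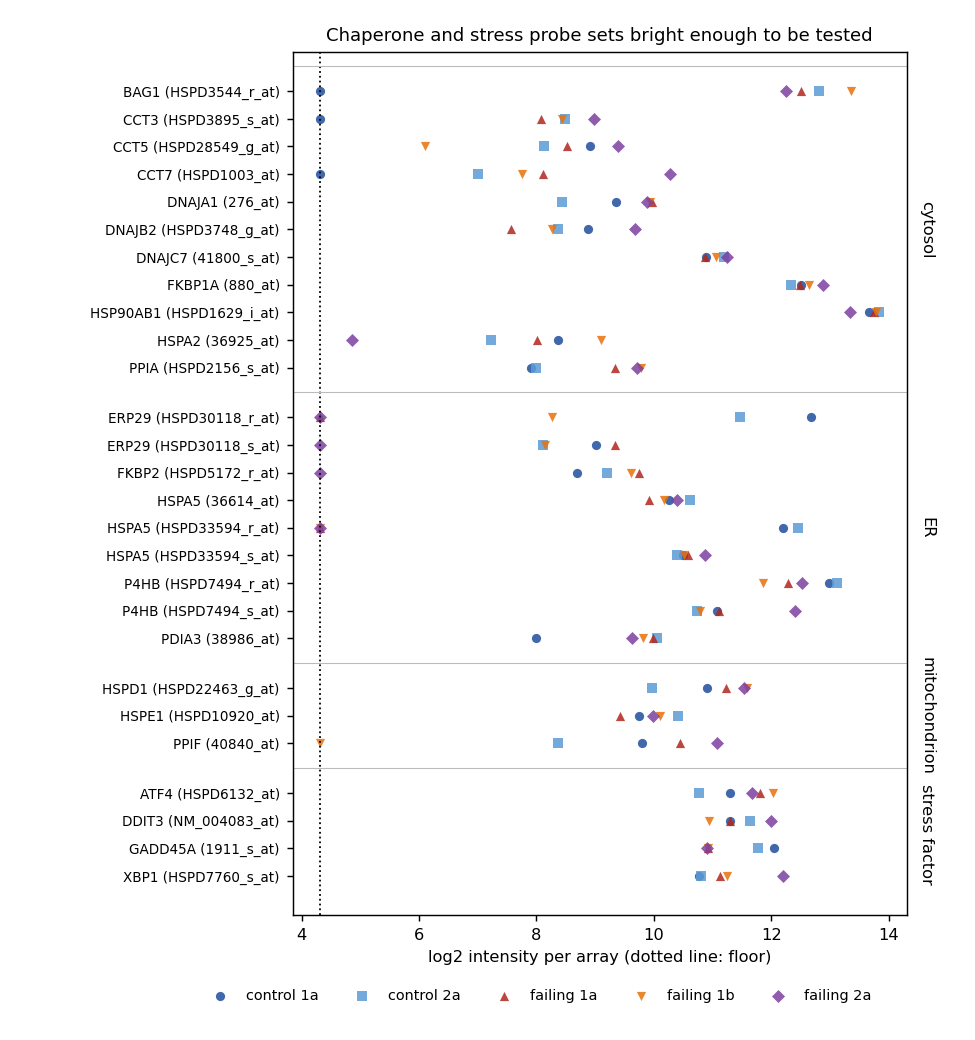
Log2 intensity of the 27 tested member probe sets on each of the 5 arrays, grouped by compartment, with the dotted line at the floor of 20. PPIA and GADD45A separate the groups cleanly, while points on the dotted line are values raised to the floor, such as control 1a for BAG1, CCT3 and CCT7 and all failing arrays for 1 probe set of HSPA5.

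Among the stress genes, GADD45A lay below control on every failing array, and ATF4 and XBP1 lay above, though none passed the threshold. GADD45A, a growth arrest protein induced by DNA damage and other stress, had intensities of 4222 and 3489 in control and 1936, 1940 and 1924 in failing myocardium. All failing values lay far below both controls and close to each other. The log2 difference was −0.99 ± 0.23 (SE, 2 against 3 arrays), 0.504-fold, with a limma adjusted p of 0.305. Over the alternative settings its log2 difference ran from −1.19 to −0.85 and its adjusted p from 0.126 to 0.764.

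ATF4, the transcription factor made when the kinases of the integrated stress response slow translation, read 2516 and 1736 in control and 3584, 4182 and 3255 in failing myocardium. Every failing array was above the controls, with a log2 difference of 0.81 ± 0.27 (1.75-fold, limma adjusted p = 0.466). XBP1, which drives ER chaperone genes after its RNA is spliced by the ER sensor IRE1, read 1742 and 1786 in control. Its failing values were 2223, 2414 and 4693, all above control, with failing 2a far above the others (log2 difference 0.73 ± 0.40, 1.66-fold, limma adjusted p = 0.629, and a log2 difference of 0.39 without failing 2a). Spliced and unspliced XBP1 RNA cannot be told apart here. DDIT3, the transcription factor CHOP, read 2526 and 3175 in control against 2522, 1951 and 4091. Its groups overlapped, and the log2 difference of −0.06 ± 0.38 had a 95% interval from −1.004 to 0.89.

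The direction of GADD45A, ATF4 and XBP1 held when the arrays were scaled to their 75th percentile or quantile normalized, which moved the median log2 difference of all probe sets from 0.11 to −0.10 and −0.05. ATF4, however, no longer lay above control on every failing array under either scaling, whereas XBP1 and PPIA did and GADD45A lay below.

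**Figure D2:**
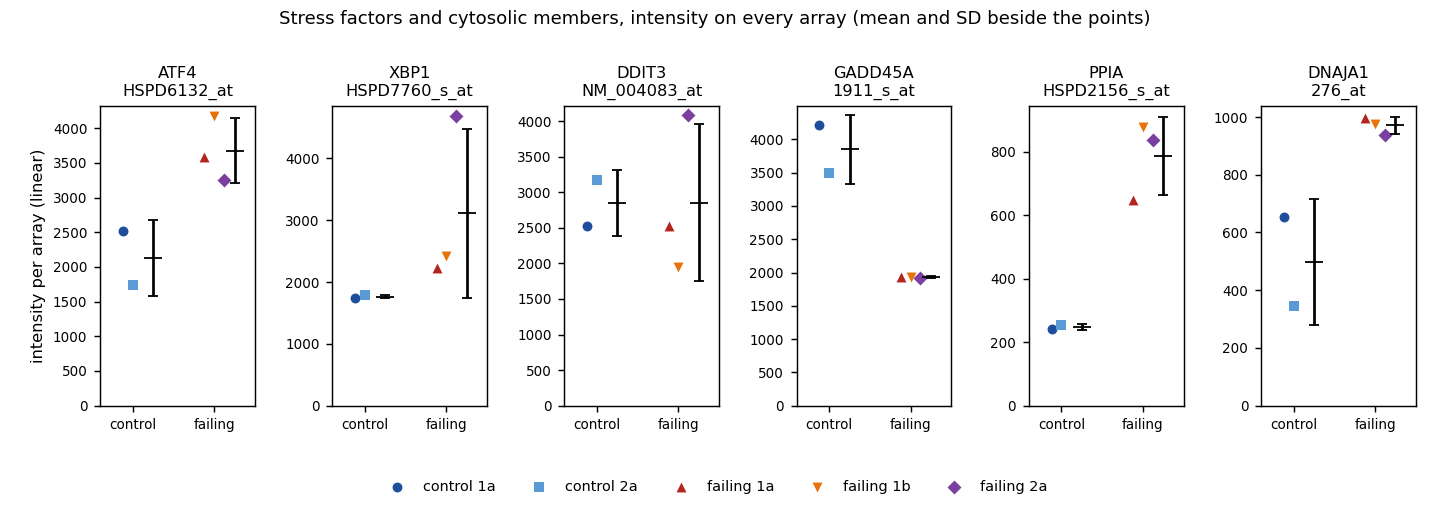
Linear intensity on each array for the stress genes ATF4, XBP1, DDIT3 and GADD45A and the cytosolic PPIA and DNAJA1, with group mean and SD (2 control, 3 failing arrays) beside the points. The 3 failing values of GADD45A lie between 1924 and 1940, those of PPIA between 648 and 878, and DDIT3 overlaps.

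In the cytosol, the cyclophilin gene PPIA and the J protein gene DNAJA1 lay above control on every failing array, while the bright HSP90AB1, FKBP1A and DNAJC7 differed little. PPIA encodes cyclophilin A, a prolyl isomerase that is the target of cyclosporin. It read 240.3 and 253.7 in control and 648, 878 and 837 in failing myocardium, so the lowest failing value was above 2 times either control. The log2 difference was 1.66 ± 0.54, 3.16-fold (limma adjusted p = 0.452), between 1.41 and 1.80 over the alternatives. PPIA has many processed pseudogenes, and whether this probe set also reads such copies was not tested.

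DNAJA1, an HSP40 partner of HSP70, read 652 and 344 in control and 997, 977 and 939 in failing myocardium. The failing arrays lay close together and all above the controls, which differed more, and the log2 difference was 1.03 ± 0.49 (2.05-fold, limma adjusted p = 0.583), and 0.57 without control 2a. The other tested J proteins, DNAJB2 (−0.12 ± 0.87) and DNAJC7 (0.02 ± 0.27), overlapped between the groups.

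HSP90AB1, the constitutive HSP90, read 12890 and 14539 in control and 13699, 14093 and 10288 in failing myocardium. Only failing 2a lay outside the control range, and the log2 difference was −0.12 ± 0.21 (95% interval −0.64 to 0.39). The other HSP90AB1 probe set, HSPD1629_s_at, was too dim to be tested and overlapped, with −118.8 and 631 against 141, −308 and 480. FKBP1A encodes FKBP12, a prolyl isomerase that binds ryanodine receptors and the drug FK506. Its intensities were 5803 and 5185 against 5733, 6415 and 7522, with a log2 difference of 0.25 ± 0.20 (95% interval −0.26 to 0.76). DNAJC7, a cochaperone that binds both HSP70 and HSP90, read 1896 and 2333 against 1866, 2134 and 2434 (95% interval −0.66 to 0.70). For these tested probe sets a change of 2-fold or more lay outside the interval.

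The chaperonin subunits CCT3 and CCT7 and the HSP70 cochaperone BAG1 had large positive log2 differences whose size rested on control 1a. BAG1 read −5.92 on control 1a and 7153 on control 2a, against 5812, 10438 and 4880 in failing myocardium. The single value below the floor set its log2 difference of 4.14 ± 2.37, and the other control lay within the failing range. CCT3 showed the same pattern, with −9.86 and 357 against 270.5, 346 and 503. Without control 1a its log2 difference was 0.02 instead of 2.09. CCT7 read −240.4 and 129 in control and 276, 216 and 1235 in failing myocardium, so every failing value was above both controls. Its log2 difference was 3.05 ± 1.43 (limma adjusted p = 0.582), and 1.70 without control 1a. Both control values of CCT7 lay below the filter intensity of 140, so it passed the filter through its failing values, which favoured this direction. Without failing 2a it was not tested. CCT5 (−0.52 ± 1.20) and HSPA2, an HSP70 known from the testis (−0.47 ± 1.58), overlapped. Both had wide errors at low intensity, from 68.6 to 670 and from 28.9 to 551.

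In the ER, the probe sets of a gene did not tell the same story. HSPA5, the ER HSP70 BiP, had 3 probe sets. The first, with no letter before _at in its name, read 1226 and 1572 in control and 961, 1146 and 1344 in failing myocardium. Its groups overlapped, with a log2 difference of −0.28 ± 0.35 (95% interval −1.16 to 0.59). The second, HSPD33594_s_at, read 1449 and 1348 against 1537, 1451 and 1879. Each failing value was above control, that of failing 1b barely so, and the log2 difference was 0.21 ± 0.30. Under both other scalings this separation was lost, and the first probe set lay below control on every failing array. The third, HSPD33594_r_at, read 4699 and 5635 in control and −3071, −4173 and −11794 in failing myocardium. This was a complete separation, and in the opposite direction to the second, from bright to strongly negative. All 3 failing arrays were below the floor, so no fold or p is given, and the difference rests on the control values. The letters HSPD at the start of such names belong to the array and not to the gene HSPD1.

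ERP29, a chaperone of the disulfide isomerase family that lacks the active site, and P4HB, the main protein disulfide isomerase, likewise differed at their _r probe set. At HSPD30118_r_at, ERP29 read 6553 and 2824 in control and −1585, 308 and −1310 in failing myocardium. All failing values were below control, with a log2 difference on floored values of −6.43 ± 1.48 (limma adjusted p = 0.305). With 2 failing arrays below the floor, this probe set passed the filter through its bright control values. Its direction was thus favoured by the filter, and the size of the difference depends on the floor. The other ERP29 probe set, HSPD30118_s_at, was dim and overlapping, with 519 and 278 against 645, 284 and −57.0. P4HB at HSPD7494_r_at read 8092 and 8868 in control and 5006, 3722 and 5863 in failing myocardium. These values stayed bright on all arrays and did not overlap (log2 difference −0.83 ± 0.25, 0.564-fold, limma adjusted p = 0.412). At HSPD7494_s_at, P4HB read 2163 and 1700 against 2204, 1763 and 5413. There the failing arrays lay within or near the control range except failing 2a, and the log2 difference was 0.53 ± 0.53, and 0.040 without failing 2a, so its size rested on that array.

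The remaining tested ER genes were PDIA3 and FKBP2. PDIA3, the disulfide isomerase ERp57 that works with calreticulin, read 256 and 1058 in control and 1007, 902 and 789 in failing myocardium. The failing arrays all lay between the 2 controls, and the log2 difference of 0.78 ± 0.71 turned to −0.24 without control 1a. FKBP2, an ER prolyl isomerase, read 412 and 589 in control, 862 and 777 on failing 1a and 1b, and −2435 on failing 2a at its tested probe set, which is also an _r probe set. Failing 2a decided its sign, with −1.05 ± 1.84 over all arrays and 0.73 without it.

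**Figure D3:**
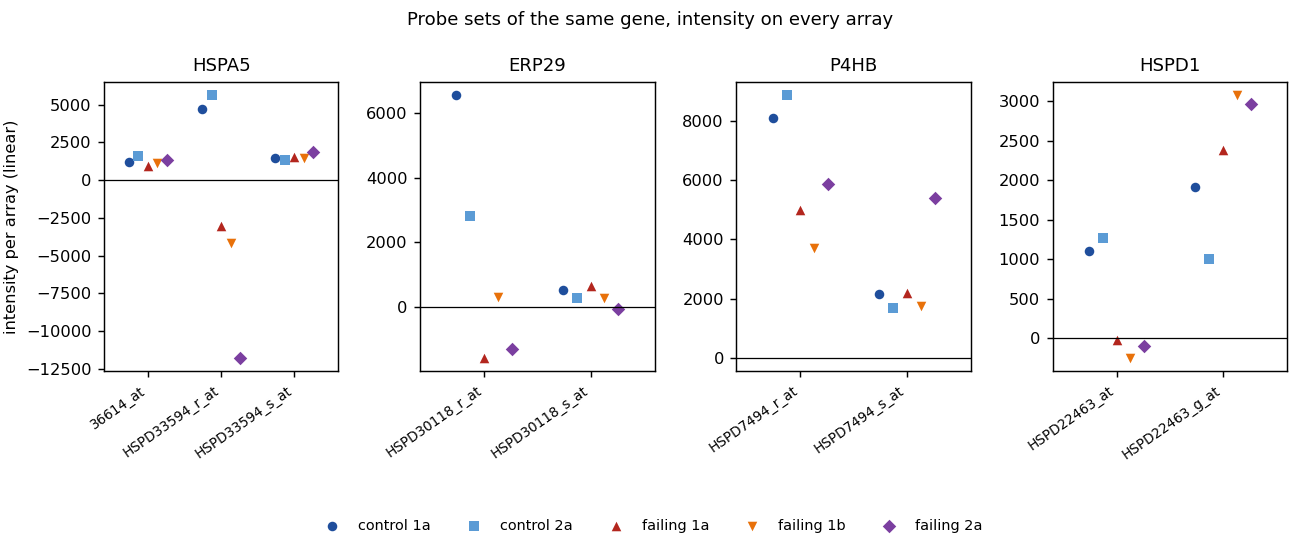
Linear intensity on each array at every probe set of HSPA5, ERP29, P4HB and HSPD1, with a line at 0. At HSPD33594_r_at the control arrays read 4699 and 5635 and the failing arrays lie at −3071 or lower, whereas the other HSPA5 probe sets stay between 961 and 1879.

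In the usual naming of such arrays, _r marks a probe set for which some rules of probe selection were dropped, and _s one whose probes are shared by several transcripts. Over the whole array, 18.6% of the 307 tested _r probe sets had an absolute log2 difference above 2, against 7.65% of the 1111 with no letter and 11.4% of the 370 _s probe sets. The 2 probe sets called over the whole array were both _r. Of the members, 5 of 27 tested probe sets were _r, 4 of them in the ER, and 3 of the 4 members below control on every failing array were ER _r probe sets. Signs differed among the tested probe sets of 2 of 3 member genes with several (HSPA5 and P4HB), and of 184 of 357 such genes on the array (51.5%). The members' share rests on 3 genes and cannot be set apart from that of the array.

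Among mitochondrial members, HSPD1, the HSP60 chaperonin, split between its probe sets. At HSPD22463_g_at it read 1914 and 1004 in control and 2387, 3079 and 2965 in failing myocardium. All failing values were above control, with a log2 difference of 1.01 ± 0.37 (2.01-fold, limma adjusted p = 0.495), and 0.55 without control 2a. At HSPD22463_at it read 1100 and 1264 in control and −28.5, −254 and −104 in failing myocardium, a clear separation the other way. With all 3 failing arrays below the floor its mean log2 intensity of 6.67 missed the filter, and no test is given. This probe set has no letter in its name, so opposite probe sets were not restricted to the _r type. HSPE1, the HSP10 lid of HSP60, read 858 and 1356 against 685, 1102 and 1016 and overlapped (log2 difference −0.24 ± 0.44, 95% interval −1.34 to 0.87). PPIF, cyclophilin D of the permeability transition pore, was erratic, with 893 and 329 against 1391, −21.9 and 2156.

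**Figure D4:**
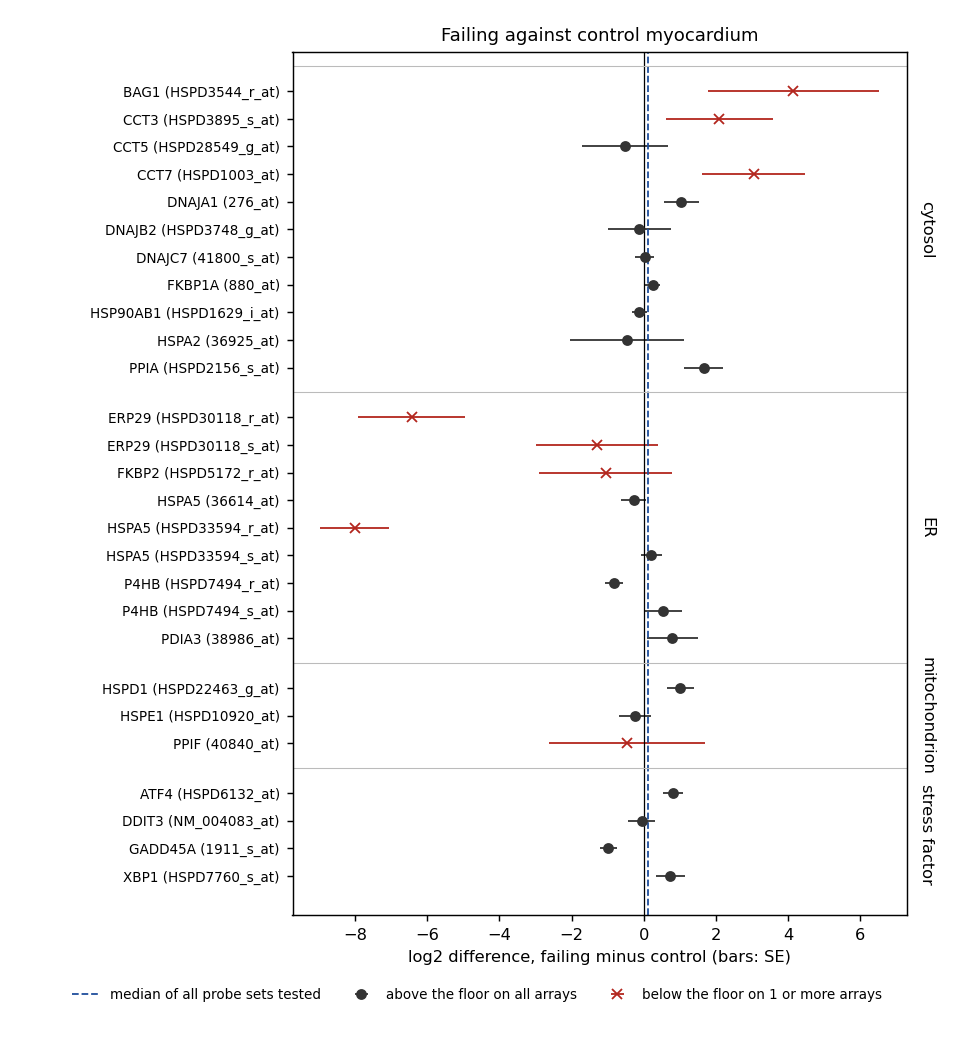
Log2 difference between failing and control myocardium for the 27 tested member probe sets, with SE bars and the median of all probe sets tested (0.11) as a dashed line. Crosses mark probe sets with an array below the floor, whose size depends on that floor, and the 5 points beyond 2 log2 units are all crosses.

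The compartments were then compared as groups. The median log2 difference was 0.25 over 11 cytosolic probe sets, −0.83 over 9 of the ER, −0.24 over 3 mitochondrial ones and 0.34 over the 4 stress genes, beside 0.11 over all 2301 probe sets. Relative to the control mean, the cytosolic median on failing 1a, 1b and 2a was 0.21, 1.04 and 0.99, above the control arrays at −0.04 and 0.04. The ER median was 0.14, −0.28 and −0.53, with the control arrays at −0.07 and 0.07. Thus failing 1a lay above both controls and the other failing arrays below. The cytosolic median exceeded that of the ER by 0.07 on failing 1a, 1.32 on failing 1b and 1.52 on failing 2a. Without the _r probe sets the ER median was 0.21 over 5 probe sets of 4 genes and the cytosolic one 0.13 over 10, and the gap per failing array was −0.06, 0.76 and 0.50. A lower ER median thus did not hold outside the _r probe sets. It was also −0.56 without probe sets that had a whole group below the floor, −0.28 with a floor of 100 and 0.04 without failing 2a. Without control 1a or 2a it was −0.46 or −0.43. The cytosolic median was 1.03 without failing 1b and 0.02 without control 1a, and the mitochondrial one was −1.005 without failing 2a, where the HSPD1 probe set HSPD22463_at also entered.

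**Figure D5:**
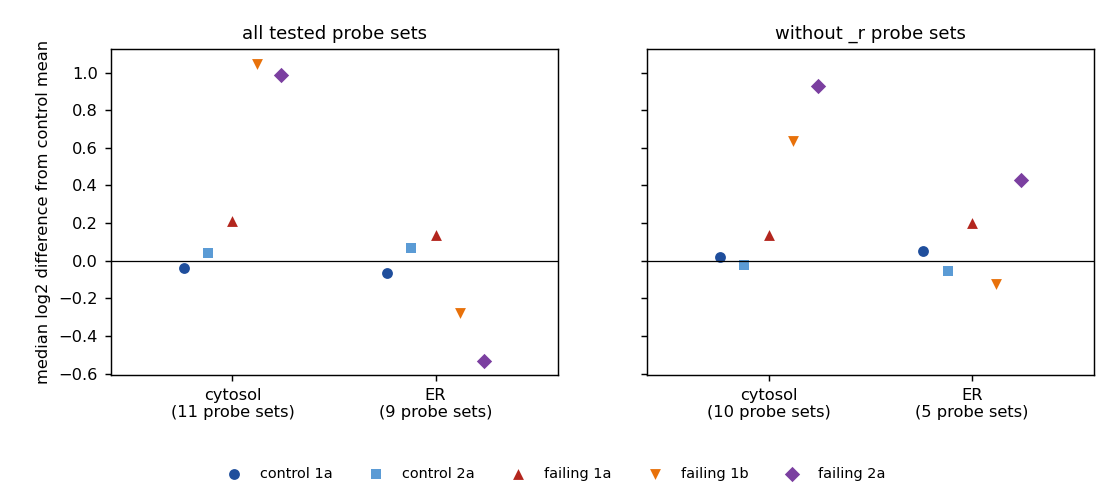
Median log2 difference from the control mean on each array for cytosolic and ER members, with all tested probe sets on the left and without _r probe sets on the right. On the left the ER medians of failing 1b and 2a lie at −0.28 and −0.53. On the right failing 1b is at −0.12 and failing 2a at 0.43.

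The other 31 member probe sets were too dim to be tested, and 20 genes had none that was tested. Of these probe sets, 11 were below the floor on all 5 arrays, among them the only ones of HSPA8, the constitutive HSP70 (−968 to −11.6), HSPA1A, the heat-inducible HSP70 (−1335 to −701), TCP1, DNAJB1, DNAJB5 and PPID and both of HSPH1. A further 19 were below it on some arrays. FKBP5 was above the floor on every array, at 43.5 and 198 in control and 93.03, 114 and 292 in failing myocardium. Calreticulin, CALR, read 165 and 232 against 31.2, 383 and −173, and HSP90B1, the ER HSP90 GRP94, was negative on all arrays but failing 2a (119). HSP90AA1, the inducible HSP90, read 81.2 and 52.8 against −94.1, −6.18 and −252 at HSPD2700_s_at. These values did not overlap, but they lay near the floor in control and below it on all failing arrays, so no test is given. Its other probe set overlapped. The remaining genes with no tested probe set, BAG6, CCT2, CCT6A, CCT8, FKBP4, HSPA9, HSPA13, PDIA5 and PDIA6, overlapped between the groups on floored values. BAG3, CANX and FKBP1B were not analysed here.

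Other genes of the same pathways were read from a list of 74 genes of the unfolded protein response, ER translocation, cochaperones and mitochondrial proteases, of which 32 were on the array. Of its 30 tested probe sets (25 genes), 0 passed in limma after adjustment, 2 were higher (6.67%) and 1 lower (3.33%) at an unadjusted p under 0.05, near the 6.13% and 3.35% of all probe sets, and the median log2 difference was 0.37. All failing values lay above control for 8 (26.7%, against 18.2% of all probe sets) and below for 1 (3.33%, against 11.5%). EIF2AK2, the kinase PKR that phosphorylates the initiation factor eIF2 when it meets double-stranded RNA, read 1471 and 1915 in control and 3582, 3499 and 5325 in failing myocardium. The groups were well apart, with a log2 difference of 1.27 ± 0.30 (2.42-fold, limma adjusted p = 0.305). NFE2L1, a transcription factor anchored in the ER that drives proteasome genes, was the gene below control, with 14290 and 13146 against 7467, 8760 and 9464 (0.622-fold, log2 difference −0.69 ± 0.18, limma adjusted p = 0.344). NACA, a ribosome-bound chaperone subunit, was above control at its _r probe set (log2 difference 0.77 ± 0.26) and had −0.40 ± 0.34 at its other one.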

How the data were processed

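The authors deposited 1 linear intensity per probe set and array. Software and normalization are not given in the sources used here. A mean of 800 after removing the lowest and highest 2% of probe sets was found on every array. Of 4653 rows, 52 array controls were left out. Of the other 4601, 3724 had 1 gene symbol in the platform annotation, 72 several and 805 none, and columns of other samples numbered 0. The deposited intensities were raised to a floor of 20 before log2, so folds are given only where all arrays were above it.

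Probe sets with a mean log2 at or above the median were tested with limma 3.58.1 in R 4.3.3. The fit used moderated variances with a trend on intensity, two-sided p-values and a Benjamini-Hochberg threshold of 0.05, after a check on simulated data. The simulated probe sets all had normal noise of the same spread, with no value raised to the floor and no filter. The check therefore does not cover unequal spread, values below the floor or the filter. Errors are SEs of that fit, and group medians got no test. Members and lists were chosen with earlier results of these data known. Named were a fixed list of well-known members, up to 12 probe sets per direction with the smallest p among those whose groups did not overlap, any past the threshold, genes with opposite probe sets, and up to 2 pathway genes per direction by p. Other members, such as BAG1, DNAJB2, DNAJC7, HSPA2 and those with no tested probe set, are named so that every member is accounted for, chosen after their values were seen. Alternatives changed the scaling, floor, filter, trend, probe sets per gene and arrays used. Leaving out _r probe sets, or those with a whole group below the floor, was chosen after seeing the data.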

Additional observations from a re-analysis of the deposited data

How the results depend on the processing

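Of the 23 named log2 differences, 15 kept their direction under every alternative, of 15, that tested them. Counted among these were the HSPA5 and ERP29 _r probe sets and CCT7, whose direction the filter fixed or favoured. They were tested in 10, 13 and 14 of the alternatives. CCT3 and the HSPA5 _s probe set, also counted, fell as low as 0.017 and 0.003. The matching share over all probe sets was not computed. Across all probe sets, 2 passed; the count was 1 with 1 probe set per gene, 6 without the trend or without the filter, 4 with a floor of 100, 0 with failing 1a and 1b averaged, without _r probe sets or without those with a whole group below the floor, and 0 to 21 with an array left out, 21 without failing 2a. Of the chaperone probe sets, 0 passed; 1 did without the trend or with a floor of 100, and 0 to 1 with an array left out, 1 without failing 2a, each time the HSPA5 probe set whose failing values are all below the floor. The members below control on every failing array numbered 4 (14.8%, against 11.5% of all probe sets). They were 1 without _r probe sets (4.5%, against 11.2%) and 3 to 8 with an array left out. With an array left out, the share of all probe sets was between 15.2% and 21.0%. With arrays left out, the median ran from 0.017 to 1.03 for the cytosol, from −1.005 to 0.29 for mitochondria and from −0.86 to 0.040 for the ER, which was −0.28 with a floor of 100 and 0.21 without _r probe sets. With failing 1a and 1b averaged, DDIT3 was 0.089 and PPIF 0.15, and with a floor of 100 PPIF was 0.31. With arrays left out, the log2 difference ran from −1.21 to 0.43 for CCT5, −0.35 to 0.18 for DDIT3, −2.33 to 0.17 for ERP29 (_s), −1.98 to 0.73 for FKBP2, −0.21 to 0.021 for HSP90AB1, −0.57 to 0.094 for HSPE1, −0.24 to 1.81 for PDIA3 and −1.70 to 1.68 for PPIF. The cause of these shifts was not tested. The labels do not say what the digit (1 or 2) stands for, and its meaning was not tested. The difference of control 1a from 2a correlated at 0.042 with that of failing 1a and 1b from failing 2a. Over the 2301 probe sets tested, failing 1a and 1b, which share the digit 1, were the most alike pair of arrays (Pearson correlation 0.798). Their correlations with failing 2a were 0.525 and 0.511. Over the tested members alone, failing 1a and 1b correlated at 0.766, and with failing 2a at 0.787 and 0.594. There failing 1a was thus most like failing 2a. With that digit as a replicate block, 0 probe sets passed, DDIT3 was 0.050, and members at an unadjusted p under 0.05 went from 3 to 5 higher and stayed at 4 lower, while the counts passing and not overlapping did not change for members. Few arrays and the many values below the floor limit what could be detected.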
